A study of Mus musculus with 8 samples.

Results

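The club cell secretoglobins are 3 genes, Scgb1a1, Scgb3a1 and Scgb3a2, taken by symbol from a table of 22244 genes, and all 3 were found and passed the filter on low counts. The lungs came from adult male C57BL/6J mice, an inbred laboratory strain. One group of 4 mice had been injected with naphthalene, and the other group of 4 was labelled as having no treatment. Per the extraction protocol, total RNA came from the right cranial lobe of each mouse, while the series' design text speaks of lung cells; the tissue label is lung. Each library is labelled as 1 sample of 4 per group, and each value below is taken as 1 mouse. No genotype, transgene or further agent is named for either group. The labels give neither dose nor vehicle, neither age in weeks nor the interval from injection to sampling, so an effect of the injection itself cannot be told apart from that of naphthalene.

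Secretoglobins are small secreted proteins that form disulphide-linked dimers. In the mouse lung they are made mainly by club cells, the non-ciliated secretory cells of the airway lining, and Scgb1a1 is the usual marker of that cell type. Club cells also carry the cytochrome P450 Cyp2f2, which turns naphthalene into reactive metabolites, and for that reason naphthalene is used to injure these cells selectively.

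All 3 secretoglobins fell after naphthalene, and for each of them the 4 naphthalene libraries lay below the 4 control libraries. Levels are CPM, counts scaled to library size, after TMM scaling, which sets the libraries to a common scale. Scgb1a1 averaged 1325 ± 643 CPM in naphthalene lungs and 4785 ± 1564 CPM in control lungs (SD, n = 4 each). Scgb3a2 averaged 136 ± 76.4 CPM in naphthalene lungs and 665 ± 217 CPM in control lungs, and Scgb3a1 averaged 26.0 ± 34.2 CPM in naphthalene lungs and 187 ± 70.7 CPM in control lungs. Naphthalene means were 27.7% of the control mean for Scgb1a1, 20.4% for Scgb3a2 and 13.95% for Scgb3a1. By edgeR's quasi-likelihood test with Benjamini-Hochberg adjustment over all 14192 tested genes, 28.7% of genes passed an adjusted p of 0.05, with 14.6% lower and 14.1% higher after naphthalene. Likewise, 14.7% of tested genes had all 4 naphthalene values below all 4 control values, and 13.9% had them all above. In bulk lung RNA, fewer club cells and less RNA per club cell cannot be told apart.

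**Figure D1:**
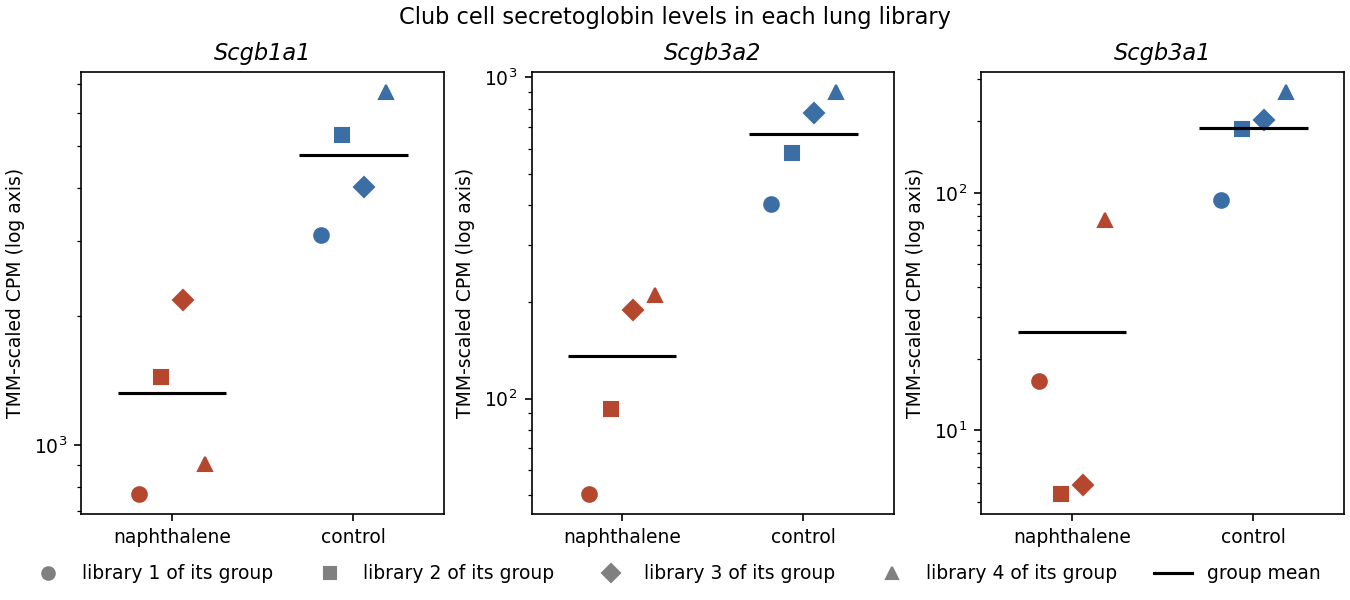
TMM-scaled CPM (log axis) of the 3 secretoglobins in each library, naphthalene on the left and control on the right; symbols number the libraries within a group and bars are group means. No naphthalene value reaches a control value, and naphthalene library 4 sits apart for Scgb3a1 at 76.8 CPM.

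Scgb1a1 encodes club cell secretory protein, also called uteroglobin, an abundant protein of the airway lining fluid. It lies on the minus strand of chromosome 19, and no other gene overlaps it in the GENCODE M21 annotation. Its level was 770, 1444, 2185 and 901 CPM in naphthalene libraries 1 to 4, against 3101, 5322, 4027 and 6692 CPM in control libraries 1 to 4. Naphthalene libraries 1 and 4 were the lowest, and the lowest control was 1.42 times the highest naphthalene value. The log2 fold change was -1.85 (SE 0.42, edgeR adjusted p = 0.00207, lower in 4 of 4 naphthalene libraries).

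The depth behind these Scgb1a1 values was large. Between 9839 and 24875 reads fell on the gene in naphthalene libraries and between 34587 and 93445 in control libraries. As a share of all counts Scgb1a1 took 0.0771%, 0.143%, 0.211% and 0.0876% in naphthalene libraries 1 to 4, against 0.322%, 0.543%, 0.392% and 0.692% in control libraries 1 to 4. The 95% Wilson interval was 0.0757% to 0.0784% for naphthalene library 1. Such intervals cover counting error only.

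Scgb3a2 encodes a secretoglobin of the distal airway lining that has been studied as an anti-inflammatory protein. It lies on the plus strand of chromosome 18 with no overlapping gene in GENCODE M21. Its level was 50.7, 92.9, 189 and 210.4 CPM in naphthalene libraries 1 to 4, against 405, 583, 773 and 899 CPM in control libraries 1 to 4. The groups were separated by the widest margin of the 3 genes, with the lowest control 1.92 times the highest naphthalene value. The log2 fold change was -2.30 (SE 0.54, edgeR adjusted p = 0.00185, lower in 4 of 4 naphthalene libraries). Read numbers were 851 to 2298 in naphthalene libraries and 4515 to 12548 in control libraries.

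Scgb3a1 encodes a secretoglobin that is found more in the larger, proximal airways and that was also described in human breast tissue as a gene silenced in tumours. It lies on the plus strand of chromosome 11 with no overlapping gene in GENCODE M21. Its level was 16.1, 5.41, 5.89 and 76.8 CPM in naphthalene libraries 1 to 4, against 93.7, 186, 202 and 265 CPM in control libraries 1 to 4. The naphthalene libraries thus differed 14.2-fold among themselves, against 2.83-fold among the controls, and naphthalene library 4 came close to control library 1. The log2 fold change was -2.86 (SE 0.94, edgeR adjusted p = 0.0127, lower in 4 of 4 naphthalene libraries). The SE is that of the difference in mean log2 CPM, another estimate than edgeR's fitted fold change. Without naphthalene library 4 the log2 fold change was -4.33 (adjusted p = 0.000127), and with limma's voom test on all libraries it was -3.69 (adjusted p = 0.00137).

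Fewer reads lay behind the Scgb3a1 values. Naphthalene libraries 1 to 4 held 270, 83, 67 and 839 reads on the gene, and control libraries 1 to 4 held 1045, 2566, 2298 and 3699. The share of all counts was 0.000568% in naphthalene library 3 (95% Wilson interval 0.000447% to 0.000721%) and 0.00747% in naphthalene library 4 (0.00698% to 0.00799%).

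The promoter of Scgb3a1 is shown because the RefSeq promoter set matched only this 1 of the 3 genes. It spans 250 bases before to 50 bases after the gene start, at chr11:49663345-49663644 on the plus strand of GRCm38.p6, an earlier build than the mm39 named for the counts. Capitals mark matches to the motifs searched.
Scgb3a1: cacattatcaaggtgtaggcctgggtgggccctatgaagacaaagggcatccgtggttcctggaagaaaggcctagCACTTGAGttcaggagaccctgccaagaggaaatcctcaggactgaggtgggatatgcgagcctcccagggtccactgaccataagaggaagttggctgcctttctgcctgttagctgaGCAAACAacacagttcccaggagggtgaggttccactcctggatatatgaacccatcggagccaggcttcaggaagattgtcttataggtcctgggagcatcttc

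Motifs were searched on both strands of that window. The letters CACTTG, a core of NKX2 family sites, began 174 bases before the gene start on the plus strand. They overlapped CTCAAG, another NKX2-1 core, which began 172 bases before it on the minus strand. Of 32851 promoters in the table, 13.6% held the first motif and 15.9% the second. A forkhead motif of the FOXA type, TGTTTNC, lay 55 bases before the gene start on the minus strand and occurs in 20.5% of promoters. The TATA box letters TATAAA, which 13.6% of promoters hold, were not in this window. Likewise absent were the C/EBP motif TTGCNNAA, held by 10.8% of promoters, and the AP-1 motif, written TGANTCA and held by 7.81% of them. Each match is a description of letters, and no binding was measured.

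Levels can be set between genes only per length, here as TMM-scaled CPM per kilobase of the merged exons in GENCODE M21. On that scale Scgb1a1 stood at 2784 ± 1352 CPM per kilobase in naphthalene lungs and 10053 ± 3285 in control lungs (SD, n = 4 each). Scgb3a2 stood at 154 ± 86.8 in naphthalene lungs and 756 ± 246 in control lungs, and Scgb3a1 at 43.6 ± 57.2 in naphthalene lungs and 312 ± 118 in control lungs. The order Scgb1a1, Scgb3a2, Scgb3a1 held within each of the 8 libraries. Scgb1a1 did not overlap the other genes in either group. Across naphthalene libraries Scgb3a2 (57.6 to 239) overlapped Scgb3a1 (9.05 to 128.5), whereas across control libraries Scgb3a2 (460 to 1021) and Scgb3a1 (157 to 443) did not overlap. Of 19673 genes with a length, Scgb1a1 was the highest in each control library, and it ranked 5, 4, 2 and 5 in naphthalene libraries 1 to 4. Scgb3a2 ranked between 93 and 568 in naphthalene libraries and between 10 and 28 in control libraries. Scgb3a1 ranked between 208 and 5438 in naphthalene libraries and between 31 and 113 in control libraries.

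The 3 genes did not order the mice alike after naphthalene. In control lungs library 1 was the lowest and library 4 the highest for each of the 3 genes, and control library 4 also had the highest sums of other club, ciliated and mucous cell genes described below. In naphthalene lungs library 1 was the lowest for Scgb1a1 and Scgb3a2, library 3 was the highest for Scgb1a1, and library 4 was the highest for Scgb3a2 and Scgb3a1 although it was second lowest for Scgb1a1. The SD of log2 CPM was 0.68 in naphthalene lungs and 0.48 in control lungs for Scgb1a1. For Scgb3a2 it was 0.96 in naphthalene lungs and 0.51 in control lungs, and for Scgb3a1 1.76 in naphthalene lungs and 0.64 in control lungs. Among the 4739 genes whose mean level lay within 1 log2 unit of that of Scgb3a1, the median SD was 0.19 in naphthalene lungs and 0.12 in control lungs.

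The ratio of 2 secretoglobins within a library does not depend on library scaling, and it asks whether they changed by unequal amounts. The log2 ratio of Scgb3a2 to Scgb1a1 counts was -3.93, -3.96, -3.53 and -2.10 in naphthalene libraries 1 to 4, against -2.94, -3.19, -2.38 and -2.90 in control libraries 1 to 4. The difference was -0.53 (SE 0.47), with naphthalene libraries 1 to 3 below every control and library 4 above every control. The log2 ratio of Scgb3a1 to Scgb1a1 was -5.58, -8.05, -8.53 and -3.55 in naphthalene libraries 1 to 4, against -5.05, -4.84, -4.32 and -4.66 in control libraries 1 to 4, a difference of -1.71 (SE 1.17). The log2 ratio of Scgb3a1 to Scgb3a2 was -1.65, -4.09, -5.00 and -1.45 in naphthalene libraries 1 to 4, against -2.11, -1.65, -1.94 and -1.76 in control libraries 1 to 4, a difference of -1.18 (SE 0.89).

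None of these 3 differences passed a 2-sided exact permutation test over all 70 ways of dividing them 4 against 4 (p = 0.343, 0.286 and 0.400, each 0.400 after adjustment over the 3 pairs). The smallest p this design allows is 0.0286. Without naphthalene library 4, Scgb3a2 to Scgb1a1 differed by -0.95 and Scgb3a1 to Scgb1a1 by -2.67, each with an adjusted exact p = 0.0429 over 35 permutations. Over the 8 ways of leaving out 1 library the adjusted p ranged from 0.0429 to 0.729 for both of these pairs. Scgb1a1 made up 92.0%, 93.6%, 91.8% and 75.8% of the counts of the 3 genes in naphthalene libraries 1 to 4, against 86.2%, 87.4%, 80.5% and 85.2% in control libraries 1 to 4. Naphthalene library 4 had the lowest Scgb1a1 share of the 8 libraries, and naphthalene libraries 1 to 3 had the highest.

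**Figure D2:**
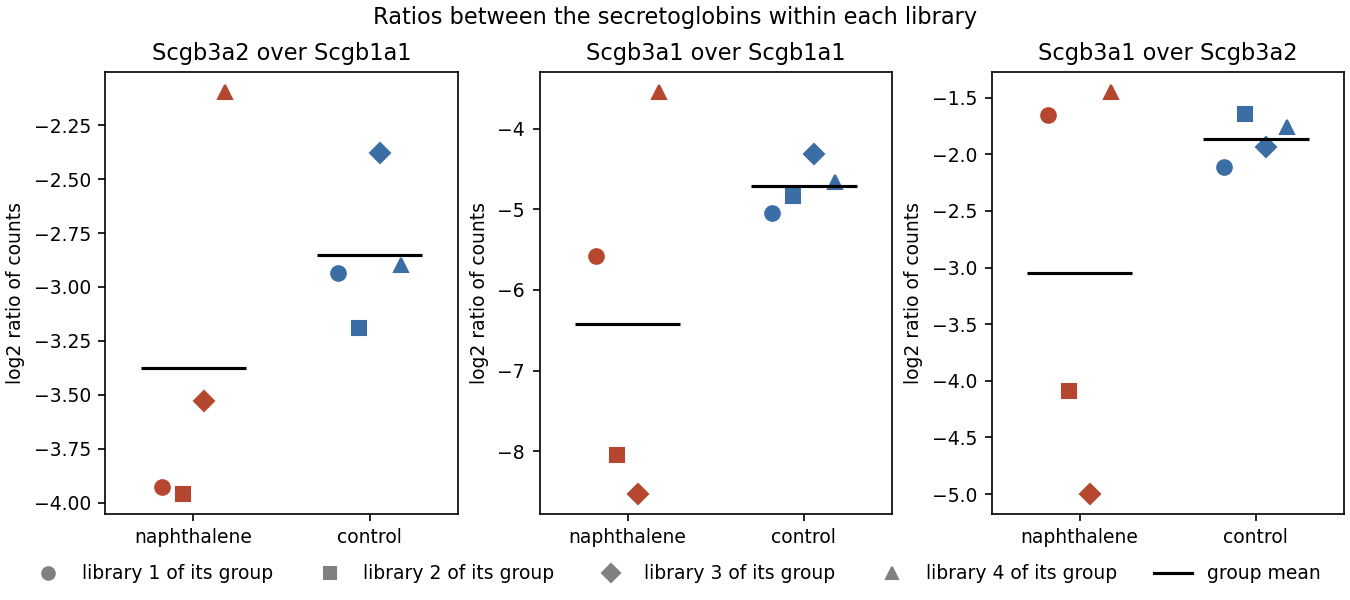
Log2 ratio of the counts of 2 secretoglobins within each library, naphthalene on the left and control on the right, with group means as bars. Naphthalene library 4 (triangle) lies above the controls in all 3 panels, while libraries 2 and 3 lie below them.

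The other genes of the secretoglobin family had few or no reads in these lungs. Of 37 other secretoglobin symbols in the table, 24 were at 0 in all libraries, 11 had between 1 and 4 reads in total, and 2 had at least 10. Scgb1c1, a secretoglobin known from the olfactory mucosa, was at 1.73, 2.61, 3.34 and 3.39 CPM in naphthalene libraries 1 to 4, against 3.77, 6.10, 6.33 and 6.23 CPM in control libraries 1 to 4. It fell, with a log2 fold change of -1.04 (SE 0.28, edgeR adjusted p = 0.0115). Scgb1b30, of the androgen-binding protein cluster, had 3, 9, 3 and 2 reads in naphthalene libraries and 4, 0, 2 and 2 reads in control libraries, too few to test. Genes of that cluster have near-identical copies, so their counts are uncertain.

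Other genes of club cells fell together with the secretoglobins. Of 20 listed, 17 could be tested, and 15 of those fell and 0 rose, against 14.6% of all tested genes that passed as lower. Their median log2 fold change was -1.75, against 0.01 over all tested genes. The list was written with earlier results of these data known. Cyp2f2 was at 154, 249, 285 and 139 CPM in naphthalene libraries 1 to 4, against 1087, 1212, 953 and 1843 CPM in control libraries 1 to 4 (log2 fold change -2.62, edgeR adjusted p = 7.72e-05). Cckar, a cholecystokinin receptor, Gabrp, a GABA receptor subunit, and Lypd2 fell with log2 fold changes of -2.40, -3.01 and -2.25. Krt15 and Aldh1a1 did not pass (log2 fold changes -0.75 and -0.35, edgeR adjusted p = 0.451 and 0.125). The remaining 3 were too low to test, among them Gsta3 on chromosome 1. Of the deposited symbols, 1138 of 1150 matched protein-coding genes of chromosome 1 are listed at 0 in all libraries, against 5.05% on the other autosomes, so nothing is said of genes there.

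Set against the summed CPM of the 20 club cell genes, the secretoglobins had lower mean ratios after naphthalene. The mean log2 ratio to that sum was -1.10 in naphthalene lungs and -0.33 in control lungs for Scgb1a1. It was -4.47 in naphthalene lungs and -3.18 in control lungs for Scgb3a2, and -7.53 in naphthalene lungs and -5.04 in control lungs for Scgb3a1. The groups overlapped for Scgb1a1 (-1.48 to -0.55 in naphthalene libraries, -0.60 to -0.12 in control libraries) and for Scgb3a1. They did not overlap for Scgb3a2 (-5.33 to -3.58 in naphthalene libraries, -3.54 to -2.76 in control libraries). These ratios were not tested. The sum holds Cbr2 and Aldh1a1, which other lung cells also express. They averaged 939 and 937 CPM in naphthalene lungs, where the whole sum was 2041 to 3189 CPM. Their log2 fold changes were -0.85 and -0.35. The median log2 fold change of the tested club cell genes was -1.75, against -1.85, -2.30 and -2.86 for Scgb1a1, Scgb3a2 and Scgb3a1.

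**Figure D3:**
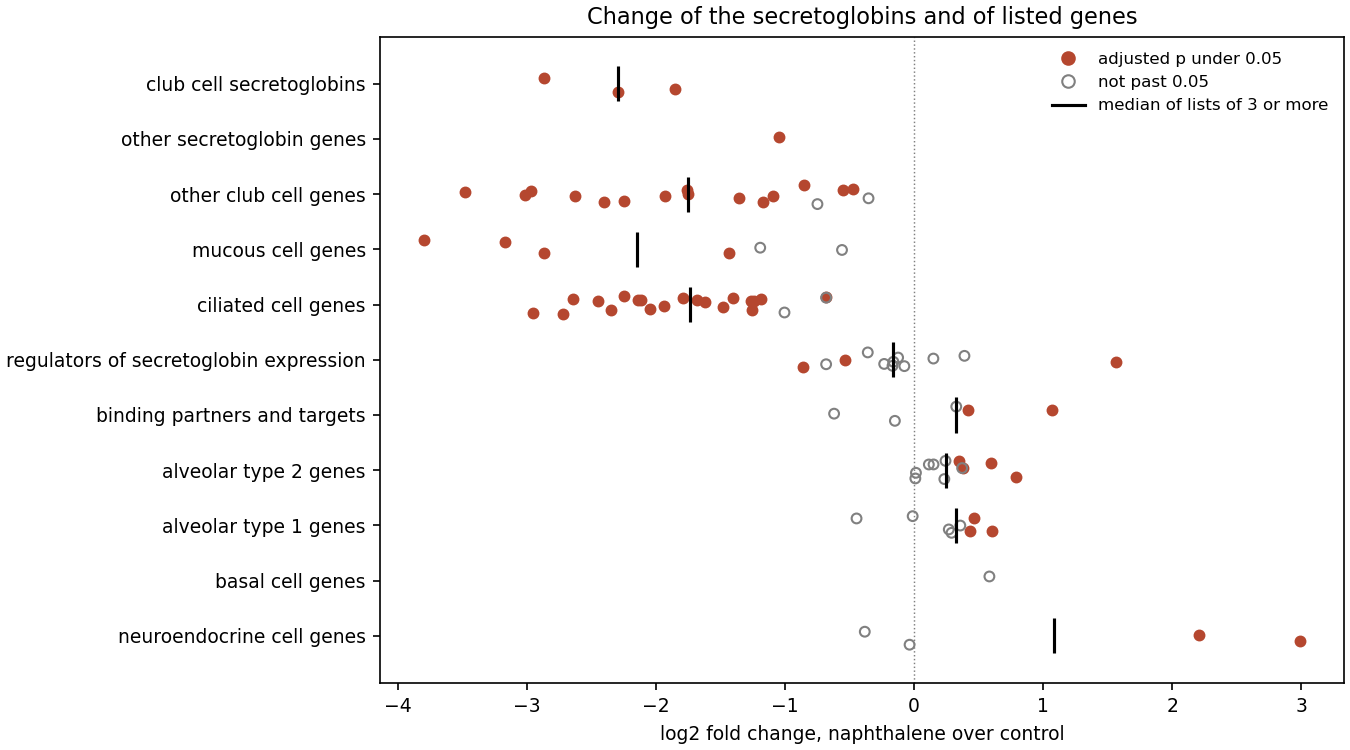
Log2 fold change of each tested gene (naphthalene over control, x axis) in the secretoglobins and in each list (y axis); filled points passed an adjusted p of 0.05 and bars are medians. The 3 secretoglobins lie between -2.86 and -1.85, within the range of the other club cell, mucous and ciliated genes.

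Markers of ciliated and mucous cells fell along with the secretoglobins. Of 22 tested ciliated cell genes 20 fell and 0 rose, against 14.6% of all tested genes that passed as lower. Their median log2 fold change was -1.73. Among them Hydin, of the ciliary central apparatus, Cdhr3, the adenylate kinase gene Ak7 and Cfap43 fell with log2 fold changes of -2.64, -2.72, -2.11 and -1.48. Foxj1, the transcription factor of motile ciliogenesis, did not pass (log2 fold change -0.68, edgeR adjusted p = 0.188), but passed as lower without naphthalene library 1 (-1.20, adjusted p = 0.0045). Mcidas, a regulator of multiciliated cell formation, averaged 0.692 CPM in naphthalene lungs and 1.37 CPM in control lungs and did not pass (adjusted p = 0.0650). The summed ciliated level was 262 to 446 CPM in naphthalene libraries and 1103 to 1679 CPM in control libraries, and no listed gene was at 0 in all libraries. Against that sum the mean log2 ratio of Scgb1a1 was 1.80 in naphthalene lungs and 1.87 in control lungs, and that of Scgb3a2 was -1.58 in naphthalene lungs and -0.98 in control lungs. That of Scgb3a1 was -4.63 in naphthalene lungs and -2.85 in control lungs, with overlapping groups for all 3 genes, and these ratios were not tested. The part of ciliated cells in the secretoglobin result was not tested.

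Of 10 mucous cell genes 6 could be tested, and 4 fell and 0 rose, against 14.6% of all tested genes that passed as lower. Their median log2 fold change was -2.15. Muc5b, a gel-forming mucin also made by club cells, Muc5ac, Tff2, a trefoil peptide, and Fcgbp fell with log2 fold changes of -3.79, -2.86, -3.17 and -1.43. Spdef and Agr2 did not pass (log2 fold changes -1.19 and -0.56, edgeR adjusted p = 0.0662 and 0.495). The mucous sum was 17.9 to 30.9 CPM in naphthalene libraries and 173 to 345 CPM in control libraries. Most of it was Muc5b, which averaged 14.9 CPM in naphthalene lungs and 206 CPM in control lungs. Muc5ac averaged 0.553 CPM in naphthalene lungs and 3.85 CPM in control lungs. The sum therefore says little of mucous genes other than Muc5b. Clca1, Tff1, Itln1 and Foxa3 were too low to test. The part of mucous cells in the secretoglobin result was not tested.

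No tested gene of the other epithelial lists passed as lower in edgeR's test. Over all tested genes 14.6% passed as lower and 14.1% as higher. In the alveolar type 2 list 11 genes were tested, and 4 of them rose and 0 fell, and their sum was 19416 to 25100 CPM in naphthalene libraries and 17112 to 20998 CPM in control libraries. The surfactant genes Sftpd and Sftpb, which club cells also express, rose (log2 fold changes 0.79 and 0.35), as did the protease gene Napsa (0.60). Slc34a2, a phosphate transporter gene, also passed at 0.38 (edgeR adjusted p = 0.0321). Sftpb and Slc34a2 lost their calls without control library 1 or 2 or naphthalene library 2 (adjusted p up to 0.102), and Slc34a2 also without control library 4 or naphthalene library 4. Sftpc, the defining type 2 marker, averaged 6502 ± 1081 CPM in naphthalene lungs and 6452 ± 778 CPM in control lungs (adjusted p = 0.965).

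In the alveolar type 1 list 8 genes were tested, and Pdpn, Aqp5 and Hopx rose (log2 fold changes 0.61, 0.43 and 0.46) while 0 fell. Hopx lost its call without control library 2 or 4 (adjusted p up to 0.0539). Emp2 was at 1301 ± 55.0 CPM in naphthalene lungs and 1063 ± 118 CPM in control lungs (adjusted p = 0.0634). Type 1 sums were 8140 to 9537 CPM in naphthalene libraries and 6440 to 8635 CPM in control libraries. Of 4 tested neuroendocrine genes the ubiquitin hydrolase Uchl1 and the neuropeptide gene Calca rose, with log2 fold changes of 2.99 and 2.21 and list sums of 23.3 to 32.9 CPM in naphthalene libraries and 7.80 to 9.07 CPM in control libraries. Of 4 basal cell genes only Trp63 could be tested, and it did not pass (log2 fold change 0.58, adjusted p = 0.283). Basal sums were 2.15 to 7.05 CPM in naphthalene libraries and 1.67 to 5.20 CPM in control libraries. The part of these cell types in the secretoglobin result was not tested.

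**Figure D4:**
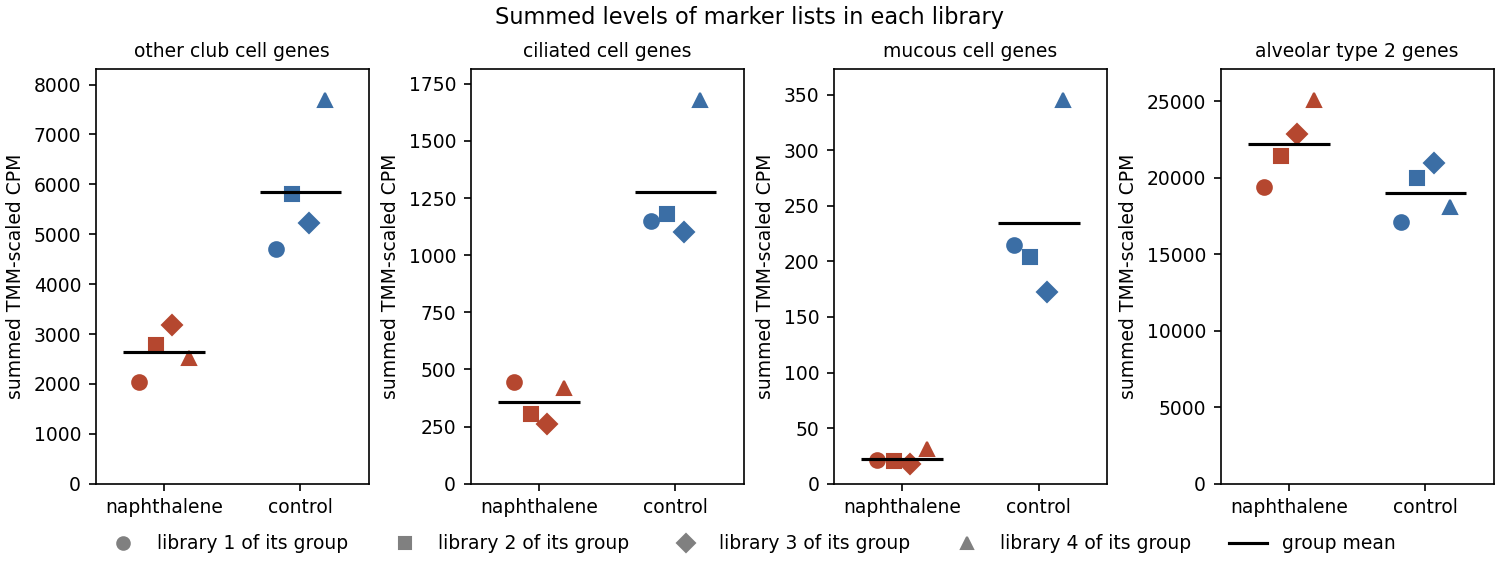
Summed TMM-scaled CPM of 4 marker lists in each library (linear axes from 0), naphthalene on the left and control on the right, with group means as bars. Club, ciliated and mucous sums are lower in naphthalene libraries without overlap, and alveolar type 2 sums overlap between groups. Muc5b, which club cells also make, is most of the mucous sum.

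Of 12 tested regulators of secretoglobin expression, 2 fell and 1 rose, near the 28.7% of all tested genes that passed, and their median log2 fold change was -0.16 against 0.01 over all tested genes. Foxj1 stands in this list and in the ciliated one. Nkx2-1, the lineage factor of lung epithelium that acts on secretoglobin promoters, averaged 79.1 ± 4.24 CPM in naphthalene lungs and 86.2 ± 5.43 CPM in control lungs (log2 fold change -0.12, edgeR adjusted p = 0.305). Foxa1, a forkhead factor, averaged 28.7 ± 4.43 CPM in naphthalene lungs and 41.4 ± 3.40 CPM in control lungs (log2 fold change -0.53, adjusted p = 0.00838). Sox2, a factor of the conducting airways, averaged 6.45 ± 2.38 CPM in naphthalene lungs and 11.5 ± 2.71 CPM in control lungs (-0.86, adjusted p = 0.0242). Cebpd, a C/EBP factor that glucocorticoids and inflammation induce, averaged 127 ± 13.8 CPM in naphthalene lungs and 43.0 ± 16.4 CPM in control lungs (1.57, adjusted p = 0.000481).

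Foxa2, Cebpa, Gata6 and Nr3c1 had log2 fold changes between -0.17 and 0.15 and adjusted p of 0.261 to 0.562. Sox2 lost its call without control library 1 or 4 or naphthalene library 2 or 3 (adjusted p up to 0.0806). Without naphthalene library 1, 6 of the 12 passed, the added ones being Foxj1, Notch2 and Cebpb.

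Proteins reported to bind secretoglobins or to be their targets were covered only in part. Of 10 listed, 5 could be tested, and 2 rose and 0 fell. Over all tested genes 28.7% passed, 14.1% as higher and 14.6% as lower, so so few genes say nothing of the list as a whole. Tgm2, the transglutaminase that cross-links uteroglobin, averaged 920 ± 235 CPM in naphthalene lungs and 437 ± 22.2 CPM in control lungs (log2 fold change 1.07, edgeR adjusted p = 0.000845). Sdc1, a syndecan, averaged 331 ± 29.7 CPM in naphthalene lungs and 248 ± 14.3 CPM in control lungs (0.42, adjusted p = 0.00724). Fpr2 and Pla2g1b, a formyl peptide receptor and a secreted phospholipase A2, did not pass (log2 fold changes 0.33 and -0.62, adjusted p = 0.453 and 0.107). Marco, the scavenger receptor described as a receptor of Scgb3a2, and Fn1 lie on chromosome 1 and are listed at 0.

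The genes most like each secretoglobin were found by the root mean square difference of log2 CPM over the 8 libraries, each gene centred on its own mean, among 13784 named genes. For Scgb1a1 they were the claudin gene Cldn10 (0.31), the nucleoside transporter gene Slc28a3 (0.33), Cckar (0.34), the homeobox gene Six4 (0.35) and the acid phosphatase gene Acpp (0.35), against a median of 1.11 over all genes. Cyp2f2 (0.43) ranked 16 on that measure. For Scgb3a2 they were the carboxylesterase gene Ces1f (0.30), the calpain gene Capn13 (0.32), the anion transporter gene Slco1a5 (0.33), the claudin gene Cldn8 (0.33) and the water channel gene Aqp4 (0.34), against a median of 1.41. Some of these matches rest on few reads. In naphthalene libraries 1 to 4, Slc28a3 had 3, 16, 12 and 4 reads and Capn13 had 1, 1, 4 and 4. Slco1a5 had 6, 9, 10 and 23 reads there.

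For Scgb3a1 the nearest genes were Reg3g (0.46) and Bpifa1 (0.55), which encode secreted antimicrobial proteins, Sntn (0.57), which encodes a protein of ciliary tips, Fam216b (0.71) and Dthd1 (0.72), against a median of 2.15. Dthd1 had only 3, 0, 1 and 12 reads in naphthalene libraries 1 to 4. It passed as lower (edgeR adjusted p = 0.0207) but not without control library 4 or naphthalene library 3 (adjusted p up to 0.0656). Bpifa1 was at 54.6, 8.35, 30.0 and 166 CPM in naphthalene libraries 1 to 4, against 353, 600, 343 and 711 CPM in control libraries 1 to 4. Reg3g was at 3.81, 0.457, 0.966 and 9.61 CPM in naphthalene libraries 1 to 4, against 18.7, 55.9, 28.1 and 56.0 CPM in control libraries 1 to 4. Both were highest among the treated mice in naphthalene library 4 and lowest in library 2, as was Scgb3a1. They were picked for such likeness, so this adds no separate evidence about those libraries. Scgb1a1 and Scgb3a1 differed from each other by 1.65 on this measure, and Scgb1a1 and Scgb3a2 by 0.63.

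**Figure D5:**
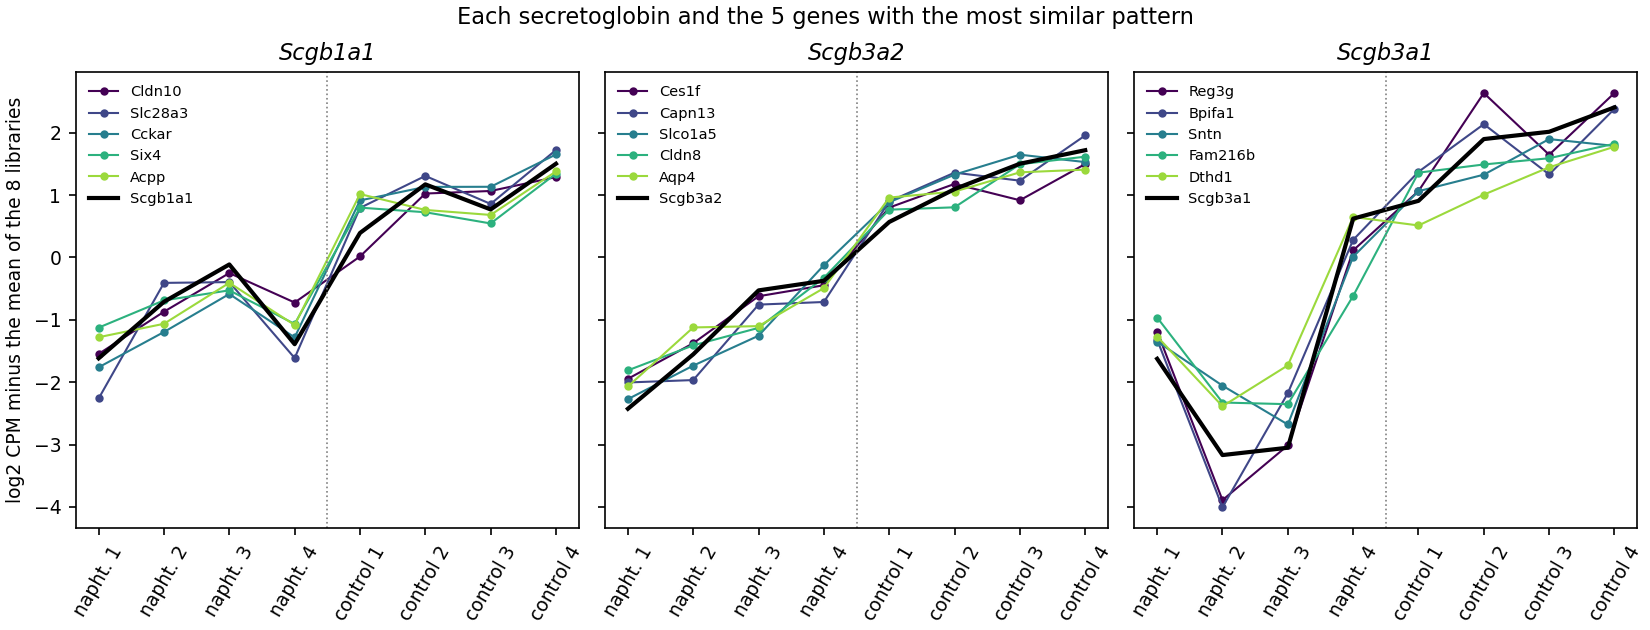
Log2 CPM minus the mean of the 8 libraries (y axis) for each secretoglobin (thick line) and its 5 most similar genes, by library (x axis, naphthalene left of the dotted line, control right); lines join the values of 1 gene and give no order. Among the naphthalene libraries, library 4 is the highest for Scgb3a1 and its 5 genes, and library 3 is the highest for Scgb1a1 and its 5 genes.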

How the data were processed

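Read counts per gene symbol were deposited by the authors as whole numbers with no normalisation, 1 column per mouse. Stranded total RNA libraries were made after DNase digestion, per the labels' protocols. Per the submitters' processing notes, the build was mm39 and the tools included featureCounts 2.0.6, HISAT2 2.2.1, edgeR 4.2.1 and Trim Galore 0.6.7, with no role stated. No source used here gives the annotation or strand setting. Totals were 10743842 to 16792306 counts per library.

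The test ran in edgeR 4.0.16 under R 4.3.3 (TMM scaling, filterByExpr with minimum count 10 and minimum total 15, quasi-likelihood test, group as the only term) and Benjamini-Hochberg adjustment. Columns of other samples numbered 0. Standard errors are those of the difference in mean log2 CPM (prior count 2). Ratios used counts plus 0.5. Chi-square statistics between libraries of 1 group were 5.57 to 48.5 per degree of freedom, above sampling noise, so each library counted once. The procedure was tested on simulated counts. Alternatives were other scalings and filters, DESeq2 1.42.0, limma 3.58.1 voom, a replicate block and each library left out.

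The members and lists were chosen with earlier results of these data known. Named genes were the members, other secretoglobins with at least 10 counts, the 5 nearest genes per member and up to 4 genes of smallest p per list, plus members of the lists that a result turned on, which were chosen after their values were seen. Gene lengths came from GENCODE M21, which gave a single length for 19673 genes, and the promoter came from RefSeq; both are on GRCm38.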

Additional observations from a re-analysis of the deposited data

Results flagged for a closer look

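Among 62 sets of 4 values examined, 4 held a library far from the other 3 of its group. Since chance gives about 1 in 20, the number of flags was near what chance alone gives. Scgb3a1 stood at 76.8 CPM in naphthalene library 4, against 5.41 to 16.1 CPM in the other naphthalene libraries. That flag was set on CPM. In log2 CPM the values were 4.02, 2.48, 2.59 and 6.27 in naphthalene libraries 1 to 4, and library 4 stood less far apart. Dthd1 stood at 1.10 CPM in naphthalene library 4. It was picked for its likeness to Scgb3a1, so its flag is not independent of that one. The summed alveolar type 1 level was 9537 CPM in naphthalene library 4, against 8140 to 8351 CPM in the other treated libraries. The summed ciliated cell level was 1679 CPM in control library 4, against 1103 to 1179 CPM in the other controls. None of these flags was weighed against an explanation.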

How the results depend on the processing

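The fall of Scgb1a1, Scgb3a2 and Scgb3a1 kept its direction and its call in the 7 other fits (DESeq2, voom, the replicate block, RLE or upper quartile scaling, and either no filter or a stricter one) and in the 8 fits without 1 library. Leaving out 1 library gave log2 fold changes of -2.20 to -1.65 for Scgb1a1, -2.59 to -2.02 for Scgb3a2 and -4.33 to -2.52 for Scgb3a1, with adjusted p of at most 0.0363. It gave differences of -0.95 to -0.33 for Scgb3a2 over Scgb1a1, -2.67 to -1.01 for Scgb3a1 over Scgb1a1 and -1.72 to -0.54 for Scgb3a1 over Scgb3a2. Calls numbered 2 to 5 for alveolar type 2 genes, 2 to 5 for alveolar type 1 genes and 2 to 6 for regulators. DESeq2 and voom each called 5 alveolar type 1 genes, against 3 with edgeR; the cause was not tested. No label states whether the replicate numbers pair the mice, and 4 numbered pairs are too few to settle it. Same-numbered libraries deviated together with correlations of 0.29, 0.03, 0.18 and -0.09. Of the 4 naphthalene libraries, 2 were closest to the control of their own number. With the replicate block 4363 genes passed against 4075, 6 of 12 regulators passed (Foxj1, Cebpb and Hes1 were added, Foxj1 with adjusted p = 0.0457), Slc34a2 did not pass (adjusted p = 0.0602), and Scgb3a1 had a log2 fold change of -3.47. An exact sign-flip permutation test over the 4 numbered pairs cannot go below p = 0.125 and gave p = 0.375, 0.375 and 0.5 for the 3 ratios. Depth did not limit the secretoglobins, whereas Scgb1b30 and most of that family lay near the floor of 3 counts.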

Other observations

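The table holds 1150 symbols that match protein-coding RefSeq genes of chromosome 1, and 1138 of them are at 0 in all 8 libraries. The highest total among them is 51 reads, and 0 were tested. Of 17853 matched genes on the other autosomes, 902 are at 0 and 13316 were tested. Fn1, Marco, Gsta3, Chil1 and Igfbp2, all listed at 0, are among the genes of chromosome 1, so a list with such members is covered only in part.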
